A study of Danio rerio with 7 samples.

Results

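The even transcripts described here are 377 of the 51033 zebrafish transcripts listed for these libraries (0.739%). They had a mean of at least 100 and under 1000 TPM (a deposited level per length that sums to 1000000 in each library) over the 7 libraries, and the highest CPM (estimated counts scaled to a library total of 1000000) of the 7 was at most 1.5 times the lowest. Members were thus chosen by their levels in the same libraries that are compared below, so the comparisons of their levels describe them and do not test them. The libraries came from cells of brains of 3-month-old gfap:GFP zebrafish that had received no treatment. In this line the gfap promoter drives green fluorescent protein in ependymoglia, and cells were sorted by brightness into GFP high (4 libraries, replicates 1 to 4) and GFP low (3 libraries, replicates 3 to 5). The labels call both ependymoglial cells and do not say whether animals were pooled or whether replicates came from separate animals, so the spread between libraries may be technical.

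Ependymoglia resemble radial glia, line the ventricles of the fish brain, contact the cerebrospinal fluid and act as neural stem and progenitor cells. Their reporter brightness follows the activity of the gfap promoter together with how long the stable fluorescent protein persists, so bright and dim cells can differ in state, in identity or in both. Transcripts held at a like level across cell states usually include those for general cell upkeep, and such transcripts are used as internal standards when levels of others are compared. Whether the even transcripts belong to that kind was not analysed here: the files name transcripts by Ensembl identifier, and 0 of these identifiers matched the tables of gene names used. Markers of ependymoglia or of other brain cells were not analysed for the same reason. In bulk RNA such as this, fewer cells of a type and less RNA per cell cannot be told apart.

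Total estimated counts were 20076316 to 25545771 per GFP high library and 10629958 to 21796218 per GFP low library. The even transcripts were well covered in each. Their median estimated count was 3873 to 4671 per GFP high library and 1764 to 3653 per GFP low library, and the lowest single value among all 377 in all 7 libraries was 120 estimated counts. All 377 passed the filter on low counts. None had the same counts as another member in every library, so no pair was 1 sequence listed under 2 names, but members that are isoforms of 1 gene could not be recognised.

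Together the even transcripts made up a like part of the estimated counts of both populations. Of all estimated counts they took 8.55%, 9.34%, 8.72% and 8.83% in the GFP high libraries (replicates 1 to 4), against 8.19%, 8.38% and 8.61% in the GFP low libraries (replicates 3 to 5). The groups overlapped in this share of counts, with GFP high replicate 1 below GFP low replicate 5. The mean share was 8.86% ± 0.341 over the GFP high libraries (SD, n = 4), against 8.39% ± 0.211 over the GFP low libraries (SD, n = 3). In their share of TPM the groups did not overlap, by a narrow margin. The lowest GFP high library there was replicate 1 at 8.297%, and the highest GFP low library was replicate 5 at 8.287%. The other 1019 transcripts of 100 to under 1000 TPM took 22.8% ± 0.509 of estimated counts in GFP high and 18.2% ± 0.326 in GFP low, with no overlap between the groups. Of the difference of 5.02 percentage points in this abundance class, 4.55 points thus lay in the other transcripts and 0.469 points in the even ones, whose differences the limit on the ratio keeps small.

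Of the abundance classes compared, that of 100 to under 200 TPM had the largest share with a like level in all libraries. The classes differ in width, so the level at which this share peaks is not resolved. Of 817 transcripts of 100 to under 200 TPM, 241 (29.5%) kept within the ratio of 1.5, as did 113 of 450 (25.1%) at 200 to under 500 TPM and 23 of 129 (17.8%) at 500 to under 1000 TPM. Outside the class, 2239 of 11244 transcripts (19.9%) of 10 to under 100 TPM met the same ratio, and 6 of 71 (8.45%) of at least 1000 TPM. At 1 to under 10 TPM it was 364 of 18080 (2.01%), where the median transcript had a mean of only 57.1 counts per library against 2240 or more in each class above 100 TPM; the part of counting error in the low share was not tested.

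**Figure D1:**
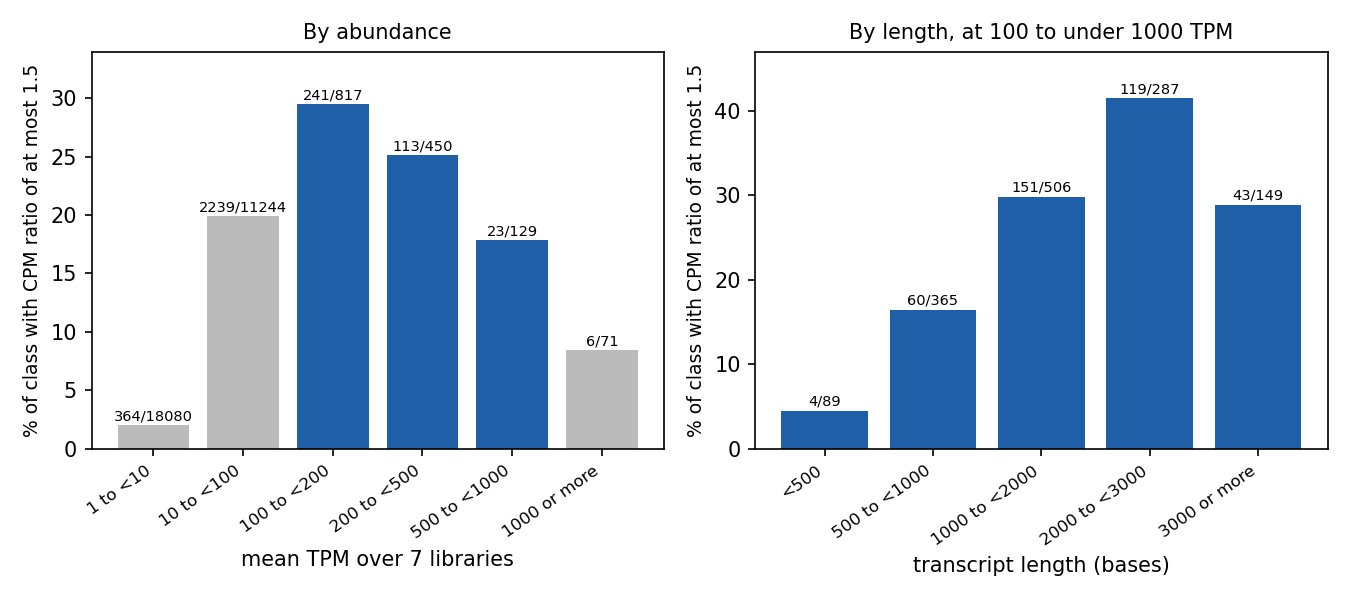
Bars give the percentage of transcripts whose highest CPM over 7 libraries was at most 1.5 times the lowest, by mean TPM (left) and, for 100 to under 1000 TPM, by transcript length in bases (right); blue bars lie within the abundance class described, and the counts stand over the bars. The share was highest at 100 to under 200 TPM (29.5%) and at 2000 to under 3000 bases (41.5%).

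Length, which the rule did not use directly, set the even transcripts apart from the others of their class by description. Their median length was 1809 bases (quartiles 1281 and 2484), against 1367 bases (785 and 2069) for the other 1019. The median was also higher within each step of abundance, with 1849 against 1434.5 bases at 100 to under 200 TPM, 1755 against 1234 at 200 to under 500 TPM and 1728 against 1345 at 500 to under 1000 TPM. Only 4 of 89 transcripts under 500 bases were even (4.49%), against 60 of 365 (16.4%) at 500 to under 1000 bases, 151 of 506 (29.8%) at 1000 to under 2000, 119 of 287 (41.5%) at 2000 to under 3000 and 43 of 149 (28.9%) at 3000 or more. At a given TPM a longer transcript has more counts: the median of the mean counts per library was 512 in the shortest class and 7282 in the longest. The spread among replicates also narrowed with length, throughout in GFP high and only at first in GFP low. The highest GFP high library was a median of 1.47 times the lowest under 500 bases and 1.19 times at 2000 to under 3000 bases, and the highest GFP low library was 1.53 and 1.28 times the lowest. At 3000 bases or more the values were 1.18 in GFP high and 1.32 in GFP low. The part of counting error and replicate spread in the link with length was not tested.

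kallisto, which made the estimates, shares out reads that match several transcripts, and a transcript whose estimated counts are all whole numbers shows no sign of such sharing. Counts were deposited as exact whole numbers, with no tolerance, in every library for 119 of the 377 even transcripts (31.6%) and for 299 of the other 1019 (29.3%). The even transcripts with whole counts had a median highest-to-lowest ratio of 1.33, as did the 258 with shared-out counts, also 1.33. Their median lengths were 1595 and 1899.5 bases.

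Within the limit of 1.5 the even transcripts differed in how even they were. The median ratio was 1.33, with quartiles of 1.26 and 1.41 and a lowest value of 1.11. It was under 1.2 for 42 of them and over 1.4 for 112. Only 36 stayed within 10% of their own mean in all 7 libraries. Among the 4 GFP high libraries the highest CPM was a median of 1.18 times the lowest, and among the 3 GFP low libraries 1.16 times. Over all transcripts of 100 to under 1000 TPM the medians were 1.24 and 1.32. Such a ratio tends to rise with the number of libraries, so the spread of the groups is not compared by it. The chi-square statistic per degree of freedom of a member's counts over all 7 libraries, both populations included, had a median of 31.2, with quartiles of 15.7 and 59.6 and a lowest value of 2.04; pure counting of independent molecules would give about 1, and reads without molecular identifiers are not independent.

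The transcripts with the lowest ratios were close to flat. ENSDART00000163508.1, of 1816 bases, had 95.7, 102, 99.9 and 104 CPM in GFP high replicates 1 to 4, against 102, 94.0 and 102 CPM in GFP low replicates 3 to 5. Its lowest value lay in GFP low replicate 4 and its highest in GFP high replicate 4, a ratio of 1.11, and the groups overlapped. ENSDART00000078513.4, of 1111 bases, had 75.9, 82.8, 82.3 and 84.0 CPM in the GFP high libraries, against 75.1, 80.1 and 76.0 CPM in the GFP low libraries. The groups overlapped again, with GFP high replicate 1 among the GFP low values. ENSDART00000029719.5, of 2723 bases, had 175, 188, 175 and 186 CPM in the GFP high libraries, against 168, 186 and 189 CPM in the GFP low libraries. Its group means were both 181 CPM, with an SD of 6.90 over the 4 GFP high libraries and of 11.5 over the 3 GFP low libraries.

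The most abundant members showed wider patterns. ENSDART00000124467.3, of 1728 bases and a mean of 884 TPM, had 820, 877, 827 and 915 CPM in the GFP high libraries, against 729, 948 and 662 CPM in the GFP low libraries. GFP low replicate 4 was the highest of all and the other GFP low libraries were the lowest, so both ends of its ratio of 1.43 lay within GFP low. ENSDART00000054115.4, of 1684 bases and 853 TPM, had 649, 675, 723 and 775 CPM in the GFP high libraries, against 924, 878 and 805 CPM in the GFP low libraries. Here all GFP low libraries lay above all GFP high libraries. ENSDART00000049240.5, of 2279 bases and 791 TPM, had 987, 1135, 954 and 977 CPM in the GFP high libraries, against 948, 964 and 1000 CPM in the GFP low libraries. Apart from GFP high replicate 2 its values lay within a narrow band. None of these 3 passed a false discovery rate (FDR) of 5% in edgeR's quasi-likelihood test, fitted over all 33178 transcripts tested, with adjusted p-values of 0.324, 0.303 and 0.243. Without GFP low replicate 4 the first of them did, at a log2 fold change of 0.48 and an adjusted p of 0.0214 by edgeR, in place of 0.25 with all libraries. These fits used edgeR's TMM scaling. With library size alone ENSDART00000054115.4 had a log2 fold change of -0.30 in place of -0.18, at an adjusted p of 0.0571 by edgeR.

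**Figure D2:**
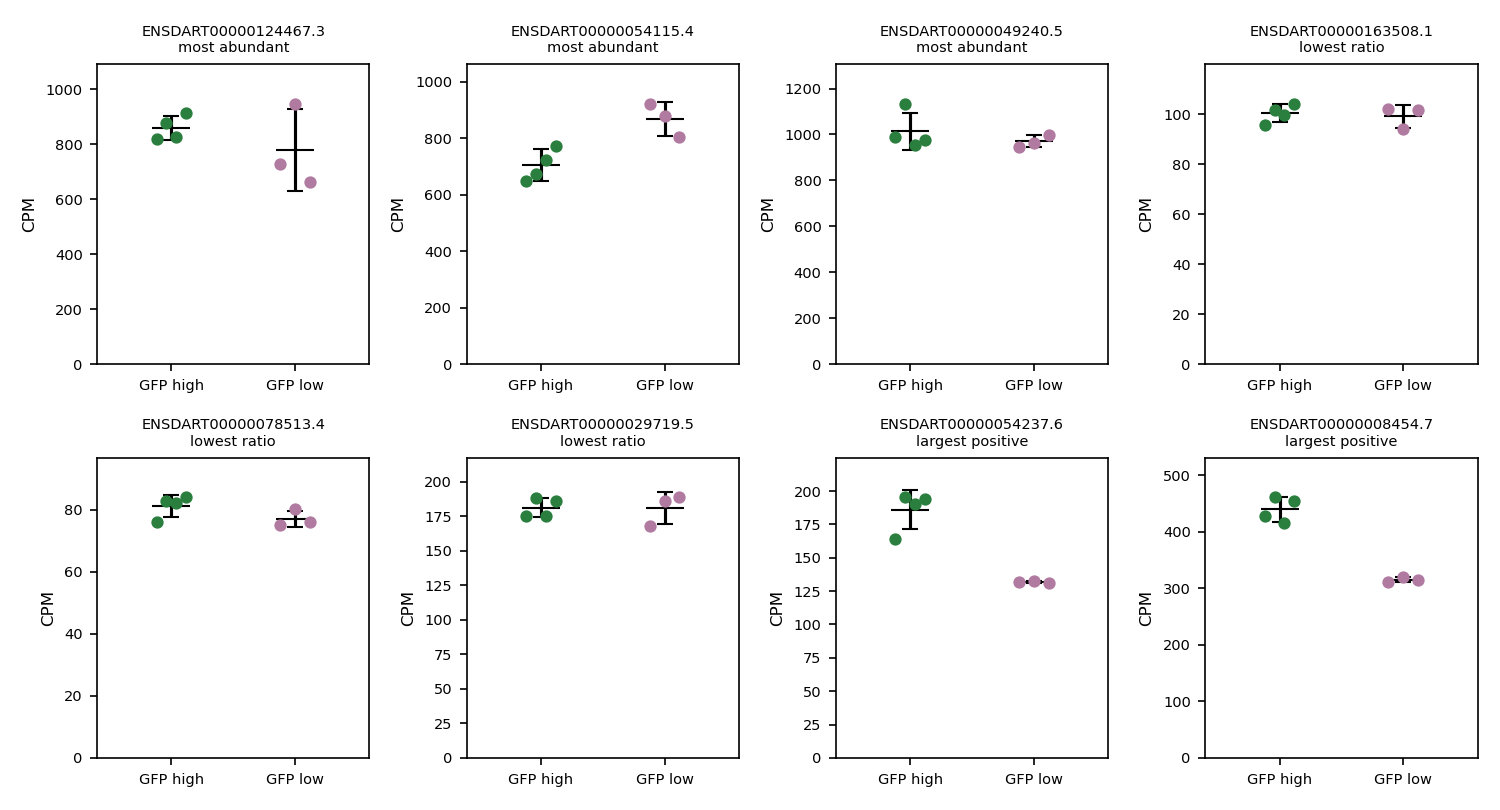
Points are the CPM of single libraries for 8 even transcripts, GFP high (n = 4) on the left and GFP low (n = 3) on the right of each panel, with the mean as a bar and the SD as whiskers. The most abundant and the most even members had overlapping groups, except ENSDART00000054115.4, which had every GFP low library above every GFP high library. The 2 members with the largest positive fold changes had every GFP high library above every GFP low library.

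At the ratio limit and the lower TPM limit of the rule members and others were nearly alike. The last transcript inside the ratio limit stood at 1.4994 and the first outside at 1.5005. The least abundant member had a mean of 100.27 TPM and the next even transcript below the limit 99.90 TPM. At the upper TPM limit the values lay further apart, at 884 TPM inside and 1019 TPM outside.

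On the scale of edgeR's TMM normalization, 69 of the 377 (18.3%) passed 5% FDR in the quasi-likelihood test, where the background over all transcripts tested was 21.8%. All 69 were higher in GFP high (background 10.2% in that direction) and 0 were higher in GFP low (background 11.6%). In the direction of GFP low, 1 member had an unadjusted p under 0.05 by edgeR, against 5969 of all 33178 transcripts tested. In that direction 1 member passed 5% FDR with DESeq2 (background 14.2%) and 1 with limma on log2(TPM + 1) (background 13.6%). Of the other 1019 transcripts of the class, 542 (53.2%) passed towards GFP high and 107 (10.5%) towards GFP low. The rule used the same contrast, so nothing is read from these shares. The log2 fold change (GFP high minus GFP low) of the 69 ran from 0.34 to 0.62, and over all 377 from -0.28 to 0.62 with a median SE of 0.12.

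The largest of these changes was that of ENSDART00000054237.6, of 1701 bases. It had 164, 195, 190 and 194 CPM in the GFP high libraries, against 132, 133 and 131 CPM in the GFP low libraries. Every GFP high library lay above the GFP low libraries, whose highest was 1.01 times the lowest. On the TMM scale its log2 fold change was 0.62 ± 0.11 (SE), and edgeR gave an adjusted p of 0.00563. On plain CPM its log2 difference was 0.49. ENSDART00000008454.7, of 1107 bases, had 429, 461, 415 and 455 CPM in the GFP high libraries, against 311, 320 and 314 CPM in the GFP low libraries. It too was without overlap. With TMM it stood at 0.60 ± 0.10 (SE) on the log2 scale, and edgeR's adjusted p was 0.00403. On plain CPM its log2 difference was 0.48. Counts of both were whole in every library.

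The 69 called members had a median of 186 TPM and 2047 bases, against 162 TPM and 1758 bases for the 308 not called. Of the members of 100 to under 200 TPM 38 of 241 were called (15.8%), and of those of 200 to under 500 TPM 24 of 113 (21.2%). At 500 to under 1000 TPM 7 of 23 were called (30.4%). The background over all transcripts tested, of every abundance, was 21.8% in either direction and 10.2% towards GFP high. Median counts per library were 4722 for called members and 3333 for those not called; more counts make a small difference easier to call, so these values only describe the calls. The number called depended on single libraries. It was 42, 27, 30 and 28 without GFP high replicates 1, 2, 3 and 4, and 24, 99 and 37 without GFP low replicates 3, 4 and 5. Over all transcripts tested, 18.6%, 17.8%, 17.3% and 16.7% were called without GFP high replicates 1, 2, 3 and 4, and 15.7%, 19.2% and 18.8% without GFP low replicates 3, 4 and 5. All of the calls among the even transcripts lay towards GFP high, except 1 of the 37 without GFP low replicate 5.

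On plain CPM, which divides by the library total alone, 88 even transcripts (23.3%) had all GFP high libraries above all GFP low libraries, where the background over all transcripts tested was 13.8%. The reverse held for 14 (3.71%), with a background of 21.7%. For the rest of the even transcripts the groups overlapped. Of the other 1019 transcripts of the class, 559 (54.9%) had all GFP high libraries above all GFP low libraries, and 144 (14.1%) the reverse. The rule used the same CPM values, so nothing is read from these shares. The highest of the 7 values lay in GFP high and the lowest in GFP low for 201 members (53.3%), and the reverse held for 78 (20.7%). Both extremes lay within GFP high for 44 and within GFP low for 54. These positions were not counted over all transcripts tested. The rule used the same values and the groups differ in size, so nothing is read from these counts either.

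Single libraries held many of the extremes. GFP high replicate 2 was the highest for 125 of the 377 and GFP high replicate 4 for 85, whereas GFP high replicate 1 was the highest for 13. GFP low replicates 5 and 4 were the highest for 61 and 48. GFP low replicate 3 was the lowest for 104, GFP low replicate 5 for 87, GFP low replicate 4 for 64 and GFP high replicate 1 for 62. The commonest pair, highest in GFP high replicate 2 and lowest in GFP low replicate 3, held for 46 members (12.2%). Relative to each transcript's mean over the 7 libraries, the median level was 97.4%, 108%, 101% and 104% over the 4 GFP high libraries, against 93.2%, 97.4% and 96.9% over the 3 GFP low libraries. GFP low replicate 3 also had the fewest counts of the 7 libraries, and GFP low replicate 5 the next fewest. The positions above are on plain CPM. On TMM-scaled CPM GFP high replicate 2 was the highest for 190 members, and GFP low replicates 5, 3 and 4 were the lowest for 175, 135 and 20. The part of depth in these positions was not tested.

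**Figure D3:**
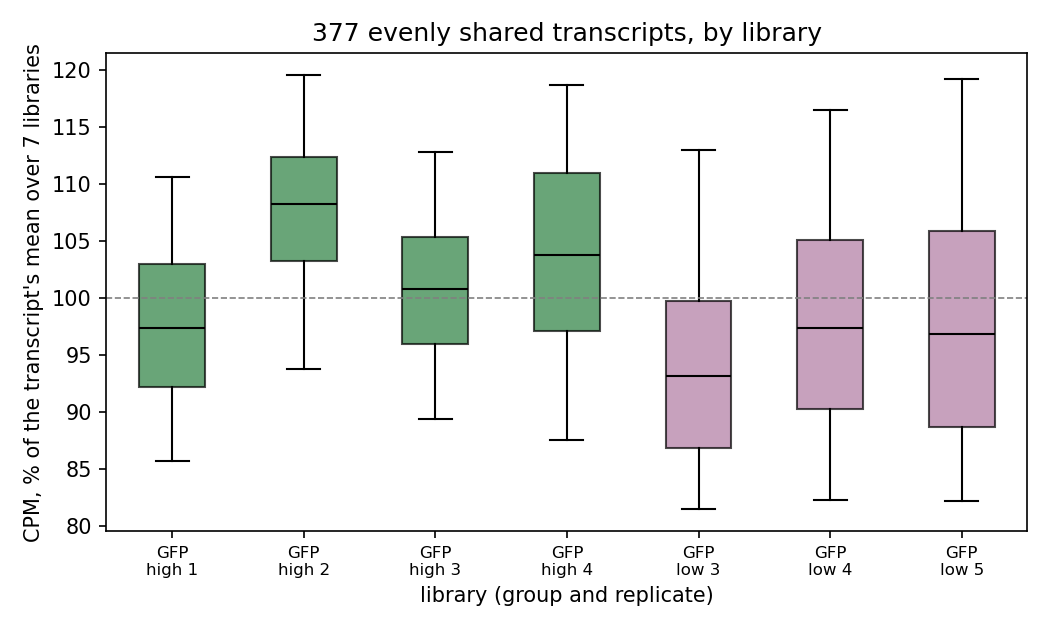
Boxes show the CPM of the 377 even transcripts in each library as a percentage of the transcript's mean over the 7 libraries, with the median, the quartiles and whiskers at the 5th and 95th percentiles; GFP high libraries are green and GFP low libraries purple. The medians ran from 97.4% to 108% in GFP high and from 93.2% to 97.4% in GFP low on plain CPM.

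How even these transcripts were, and to which side they leaned, depended on what the counts were divided by. The median log2 difference of the 377 (GFP high minus GFP low) was 0.087 on plain CPM, 0.21 on TMM-scaled CPM, 0.20 on CPM scaled by median-of-ratios size factors and 0.15 on TPM. The side turned when 1 transcript that is no member was left out of the totals, a step chosen after seeing the data, to -0.02 on plain CPM and -0.08 on TPM. That transcript, the most abundant of GFP low, took 0.15% ± 0.0732 of the counts of the 4 GFP high libraries and 6.97% ± 1.73 of those of the 3 GFP low libraries (mean ± SD). Of TPM it took 0.353% ± 0.171 in GFP high and 15.4% ± 2.86 in GFP low. Without it 177 of the 377 had the higher mean plain CPM in GFP high and 200 in GFP low, in place of 251 and 126 with it.

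TMM factors ran from 0.944 to 0.985 in GFP high and from 0.977 to 1.12 in GFP low, and a higher factor gives a lower CPM. Over all transcripts tested the median log2 fold change was 0.0051 with TMM and -0.12 with library size alone. The medians of the even transcripts were 0.21 and 0.085, above that of all transcripts tested on both scales. The rule holds members near 0 on plain CPM, where the median of all transcripts lay below 0. All 1396 transcripts of 100 to under 1000 TPM, taken without the ratio limit, also lay above the median of all transcripts tested, at 0.42 with TMM. Both scales rest on the same counts. How far the place of the even transcripts rests on the rule or on abundance was not tested, and nothing is read from it. The other 1019 transcripts of the same abundance class lay further towards GFP high, with a median of 0.59 with TMM. The limit on the ratio keeps the differences of the even transcripts small. With library size alone 35 even transcripts passed 5% FDR in edgeR, 30 towards GFP high and 5 towards GFP low. Over all transcripts tested 22.0% passed, 7.83% towards GFP high and 14.1% towards GFP low. As a part of the calls, 85.7% of the 35 lay towards GFP high, against 35.6% of the calls over all transcripts. The rule used the same contrast, so nothing is read from these shares. Of these 35, 30 were among the 69 called with TMM.

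On TMM-scaled CPM 236 of the 377 (62.6%) kept a ratio of at most 1.5, the median ratio was 1.44 and the highest 1.76. On TPM 307 (81.4%) kept it. A core of 208 (55.2%) stayed within 1.5 on plain CPM, TMM-scaled CPM, median-of-ratios CPM and TPM alike. The name even transcripts therefore holds for plain CPM, and for the core on the other 3 scales too.

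**Figure D4:**
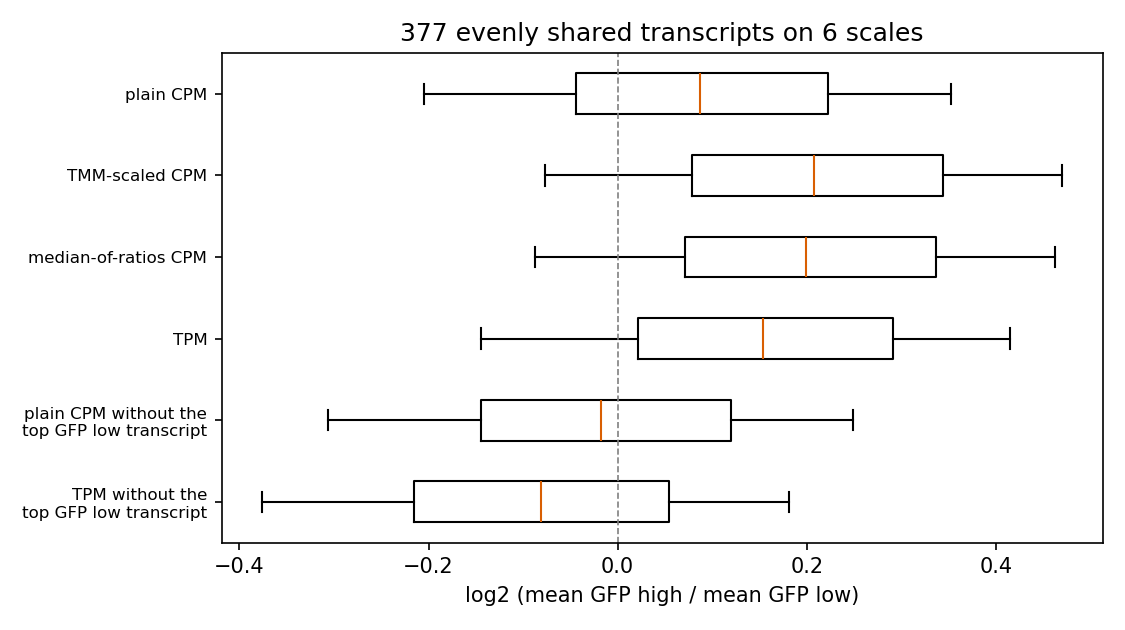
Boxes give the log2 ratio of the GFP high mean to the GFP low mean for the 377 even transcripts on 6 scales, with the median, the quartiles and whiskers at the 5th and 95th percentiles; the dashed line marks equal means. The median lay above 0 on plain CPM (0.087), TMM-scaled CPM (0.21), median-of-ratios CPM (0.20) and TPM (0.15), and below 0 once the most abundant GFP low transcript was left out of the totals (-0.02 and -0.08).

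Many of the other transcripts of the class were even within each population and missed the limit only between them. Of the 1019, 523 (51.3%) kept within 1.5 among the GFP high libraries and among the GFP low libraries taken apart, of which 443 had the higher mean CPM in GFP high and 80 in GFP low. The groups did not overlap in 426 of these 523, where the background over all transcripts tested was 35.5%; being even within each group and not over both makes overlap unlikely, so nothing is read from this count. A further 294 kept within 1.5 in GFP high only, 74 in GFP low only and 128 in neither.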

How the data were processed

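SMART-Seq v4 cDNA from sorted cells was sequenced as paired reads of 100 bases, per the labels' protocols. Each deposited file lists length, effective length, estimated counts and TPM per transcript. Neither the authors' estimated counts, which carry no normalization, nor the TPM values they deposited were altered. The submitters' processing notes name kallisto, sleuth and danRer10; versions and settings: not given in the sources used here. Groups came from the sample titles. Plain CPM divided estimated counts by the library total. For the test, estimated counts were rounded and fitted with edgeR 4.0.16 (R 4.3.3) by the quasi-likelihood F test, with TMM scaling, filterByExpr defaults, a robust fit and Benjamini-Hochberg adjustment over 33178 transcripts; each SE is the fold change on the log2 scale over the root of F. The fit was tested on simulated data. Alternatives used DESeq2 1.42.0, limma 3.58.1, other scalings, filters and offsets, a replicate block and leaving out each library. Named were the 3 most abundant members, the 3 with the lowest ratio, the 2 called members with the largest change in each direction (0 fell) and the edges of the rule. Lists by gene symbol could not be applied. The members and lists were chosen with earlier results of these data known.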

Additional observations from a re-analysis of the deposited data

Results flagged for a closer look

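In 11 measures (the summed shares of counts and TPM, and the CPM of 9 named even transcripts), a library far from the other GFP high libraries was looked for; the 3 GFP low libraries are too few. Chance marks about 1 in 20 such groups, and 1 was found. ENSDART00000054237.6 was at 164 CPM in GFP high replicate 1, against 190 to 195 CPM in the other 3 GFP high libraries. All 3 GFP low libraries lay lower still, at 131 to 133 CPM. On the TMM scale the log2 fold change of ENSDART00000054237.6 without single libraries ran from 0.56 to 0.68.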

How the results depend on the processing

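The number of even transcripts, 377, was 142 with a ratio limit of 1.3 and 863 with a limit of 2, and 270 met the rule on TMM-scaled CPM. It ran from 383 to 478 with single libraries left out. Leaving a library out cannot raise a transcript's ratio, so this range does not show how stable the number is. The difference in their summed share, 0.469 percentage points, was 0.883 as a share of TPM and 0.309 to 0.577 without single libraries. Without the 10 most abundant transcripts, an alternative planned beforehand, it was 0.212. It was -0.147 without the most abundant GFP low transcript alone, an alternative chosen after seeing the data. The 69 members past 5% FDR became 35 with library size alone (22.0% of all transcripts tested called), 105 with DESeq2 (27.4%), and 24 to 99 without single libraries (15.7% to 19.2%); the cause was not tested. The median log2 fold change of all 377 members, 0.21, was 0.085 with library size alone and 0.15 to 0.28 without single libraries. With the replicate block 0 members passed 5% FDR by edgeR and 2135 transcripts in all, against 7223 without it. An unadjusted p under 0.05 by edgeR with the block was found for 56 members and 8278 transcripts in all. The groups have only numbers 3 and 4 in common, so with the block only these libraries inform the contrast. Little then remains to estimate the spread from, and the cause of the fall in calls was not tested. Same-numbered libraries showed almost no common deviation (r = 0.0197 and 0.0222). The numbers are thus not known to pair the libraries. Calls over all transcripts were 5326 to 6649 without single libraries. For the 9 named transcripts, 141 of 144 recomputed fold changes kept their direction and side of the threshold, and none changed direction; both called ones had adjusted p over 0.05 with the replicate block (0.0747 and 0.0816). Depth gave every member at least 120 counts per library.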
